A study of Mus musculus with 32 samples.

Results

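The genes described here are 9 genes that mark homeostatic microglia, the resident macrophages of the brain in their surveying state: P2ry12, P2ry13, Tmem119, Cx3cr1, Sall1, Csf1r, Siglech, Gpr34 and Aif1. They were taken by symbol and made up 9 of the 22337 genes in the expression tables. No measured value entered the rule. RNA-seq had been performed on 32 samples of male mice in the C57BL/6J background, 6 months of age, each sample from 1 mouse: 12 samples of hippocampus (HPC, 4 in each of the groups WT, 5xFAD untreated and 5xFAD with light), 10 of meninges (4, 3 and 3) and 10 of meningeal lymphatic endothelial cells (mLECs; 4, 3 and 3). 5xFAD mice carry mutated human transgenes, APP among them, driven by the Thy1 promoter, which is active in neurons, and develop amyloid plaques, and WT mice were littermates without the transgenes. Light-treated mice (5xFAD+L) received near-infrared light through the shaved scalp in repeated sessions under isoflurane, and the untreated control mice were handled in the same way under indoor lighting. Whether the WT mice were handled in this way is not given in the sources used here, and the part of handling in differences from WT was not tested. HPC and meninges were bulk tissue, so a gene's level depends both on how many microglia or macrophages the piece held and on the RNA in each of them. The mLECs had been sorted as cells without CD45, a surface protein of all white blood cells, and with CD31 and podoplanin, a gate that leaves microglia and macrophages out.

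Microglia depend on signalling through the receptor CSF1R, whose ligands are CSF1 and IL-34, and keep their resting programme under TGF-β and the transcription factors PU.1 and SALL1. In this state they carry receptors that sample the tissue: P2Y12 and P2Y13 sense nucleotides such as ADP, CX3CR1 binds the neuronal chemokine fractalkine, and GPR34 binds lysophosphatidylserine. Around amyloid plaques microglia are known to multiply and to take on another programme, with genes such as Cst7, Clec7a and Trem2, while homeostatic transcripts per cell tend to be lowered. Aif1 encodes IBA1, the protein by which microglia and other macrophages are commonly stained, and is also expressed by macrophages outside the brain.

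The genes lie apart in the genome except for P2ry12 and P2ry13, which are neighbours on the minus strand of chromosome 3. On GRCm38, with GENCODE vM21 gene bounds, P2ry13 spans chr3:59207892-59210882 and P2ry12 chr3:59216272-59262871, and both lie inside the span of Med12l on the other strand. Gpr34 (chrX:13632089-13640858, plus strand) lies likewise inside Cask. The others are Tmem119 (chr5:113793729-113800516, minus strand), Siglech (chr7:55768178-55778925, plus strand), Sall1 (chr8:89027235-89044162, minus strand), Cx3cr1 (chr9:119901616-120069879, minus strand) and Aif1 (chr17:35170991-35176068, minus strand), with Csf1r described further on. The bases just before the 2 neighbouring starts are shown because these neighbours had log2 changes of 0.71 (P2ry12) and 1.26 (P2ry13) in 5xFAD HPC. In the RefSeq promoter table for GRCm38.p6, 6 of the 9 genes had a window, 8 windows in all. The 250 bases before each start were searched on both strands for GAGGAAG (the core bound by PU.1), GGAANNGAA (a composite of PU.1 and IRF sites) and GTCTAGAC (a palindromic SMAD element). The sequences run 5′ to 3′ on the gene's strand, with a match in capitals.
P2ry13 (chr3:59210883-59211132, minus strand): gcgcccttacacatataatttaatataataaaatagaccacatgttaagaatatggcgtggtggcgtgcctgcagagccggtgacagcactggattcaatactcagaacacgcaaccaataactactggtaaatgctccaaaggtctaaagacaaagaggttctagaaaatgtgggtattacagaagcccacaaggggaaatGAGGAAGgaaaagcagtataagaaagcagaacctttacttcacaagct
P2ry12 (chr3:59262986-59263235, minus strand): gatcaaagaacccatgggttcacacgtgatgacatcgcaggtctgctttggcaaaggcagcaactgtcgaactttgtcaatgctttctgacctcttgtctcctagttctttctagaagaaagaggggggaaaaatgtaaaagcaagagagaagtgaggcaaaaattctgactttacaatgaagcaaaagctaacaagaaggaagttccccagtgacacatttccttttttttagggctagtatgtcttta
P2ry13 held 1 match to the PU.1 core, beginning 48 bases before its start, and P2ry12 held none of the 3 motifs. None of the other 6 windows (Siglech, Cx3cr1, Aif1 and 3 of Sall1) held a match either. Among all 32851 windows of this length, 10.6% held the PU.1 core, 6.99% the composite and 0.167% the SMAD element, so 1 of 8 windows with the core is close to the share over all genes.

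HPC libraries held 13952825 to 23856476 counts, meninges libraries 6601143 to 14708202 and mLEC libraries 14231415 to 24207326. edgeR's estimate of the relative spread between mice, the biological coefficient of variation, was 0.198 for HPC, 0.35 for meninges and 1.89 for mLECs. Thy1, whose promoter drives the transgenes, stood at 407 to 622 FPKM in untreated and 434 to 522 in light-treated 5xFAD HPC against 170 to 188 in WT, so every HPC library went with its genotype label. In meninges Thy1 did not separate the genotypes (10.6 to 21.3 FPKM in WT, 18.7 to 23.9 in untreated and 13.6 to 15.6 in light-treated 5xFAD mice), so the labels could not be checked there in this way. FPKM is the number of fragments per kilobase of transcript, scaled to the mapped fragments of the library, and is comparable between genes. Among the 10 mLEC libraries, the lymphatic chemokine Ccl21a was 998 to 9356 FPKM in 8 libraries but 3.54 in WT replicate 2 and 0 in WT replicate 4. The other 5 lymphatic endothelial markers summed to 34.4 and 36.0 FPKM in these and to 38.9 to 217 in the other 8.

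In WT HPC the 9 genes were expressed over a wide range. P2ry12 was highest at 43.8 ± 2.58 FPKM (SD, n = 4), followed by Csf1r at 37.6 ± 6.46, Siglech at 27.99 ± 3.68, Tmem119 at 25.8 ± 3.75 and Cx3cr1 at 23.4 ± 0.689. The values of these 5 genes overlapped between each gene and its neighbour in this order. Below them stood Aif1 at 13.1 ± 0.946, Gpr34 at 10.4 ± 0.974, P2ry13 at 6.78 ± 0.469 and Sall1, a zinc finger transcription factor that in the brain is largely restricted to microglia, at 1.58 ± 0.141 FPKM. From Cx3cr1 downwards no value of a gene overlapped those of the next.

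To examine the effect of the 5xFAD genotype, untreated 5xFAD mice were compared with WT littermates in HPC. All 9 homeostatic genes were higher in 5xFAD mice, from 1.64-fold for P2ry12 to 3.79-fold for Aif1, and for each of the 9 genes every 5xFAD sample lay above every WT sample. All 9 passed an adjusted p value below 0.05 in edgeR's quasi-likelihood test, where 6.48% of the 12981 genes tested passed in this direction. At a change of at least 2-fold as well, 6 of the 9 passed against 4.23% of the genes tested, and P2ry12, Tmem119 and Sall1 did not. Groups that did not overlap in this direction were found for 8.75% of the genes tested. The median log2 change of the 9 genes was 1.26 and that of the tested genes 0.01. More microglia in the tissue and more RNA per microglia cannot be told apart in such bulk samples.

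Among the nucleotide receptors, P2ry12, which guides microglial processes to released ADP, was 45.7, 40.8, 46.1 and 42.5 FPKM in the 4 WT mice and 66.6, 64.9, 75.9 and 66.8 in the 4 untreated 5xFAD mice. Its log2 change was 0.71 ± 0.14 (SE, edgeR adjusted p = 0.00586), the lowest of the 9. P2ry13, a related receptor for ADP encoded next to it, was 7.13, 6.49, 6.28 and 7.23 FPKM in WT and 19.7, 13.8, 13.8 and 17.1 in 5xFAD mice, a log2 change of 1.26 ± 0.18 (edgeR adjusted p = 0.000495). The 95% intervals of these changes, 0.41 to 1.01 for P2ry12 and 0.88 to 1.64 for P2ry13, overlapped slightly. Gpr34, the lysophosphatidylserine receptor of the same receptor family, rose by 1.44 ± 0.19 on the log2 scale (edgeR adjusted p = 0.000313), from 9.77, 11.1, 11.4 and 9.43 FPKM in WT to 32., 26.6, 24.1 and 28.4 in 5xFAD mice. The library protocol does not keep strand, so reads of P2ry12 and P2ry13 cannot be told from antisense reads of Med12l, nor those of Gpr34 from Cask. Med12l was 3.02 ± 0.586 FPKM (SD, n = 4) in WT and 2.29 ± 0.394 in 5xFAD mice, and Cask 11.02 ± 1.09 and 10.7 ± 1.99, with log2 changes of -0.34 and -0.08 that did not pass the test.

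The receptors for a chemokine and a growth factor both rose more than 2-fold. Cx3cr1, the fractalkine receptor, varied little among the WT mice, at 24.3, 23.5, 22.7 and 23.2 FPKM. In the 5xFAD mice it stood at 64.4, 46.8, 45.7 and 69.8 FPKM (log2 change 1.29 ± 0.16 SE, edgeR adjusted p = 0.000172). Csf1r, on which microglial survival depends and which lies on the plus strand of chromosome 18 with its end overlapping Hmgxb3, was 46.5, 35.2, 31.2 and 37.3 FPKM in WT and 90.4, 69.5, 61.4 and 117 in 5xFAD mice (log2 change 1.21 ± 0.18, edgeR adjusted p = 0.000941). Replicates 1 and 4 of the 5xFAD mice were the higher ones for both receptors. The annotated bounds of Cx3cr1 also cover all or part of Wdr48, Gorasp1, Ttc21a, Csrnp1 and Xirp1, of which Gorasp1, Csrnp1 and Xirp1 lie on the same strand, so its reads could be shared with theirs in part.

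Siglech, a sialic acid-binding lectin of microglia that pairs with the adaptor DAP12, was 26.4, 23.6, 31.4 and 30.6 FPKM in WT and 95.1, 70.6, 76.3 and 86.8 in 5xFAD mice, a 2.79-fold difference (log2 change 1.48 ± 0.16 SE, edgeR adjusted p = 6.48e-05). Its lowest 5xFAD value was more than 2-fold above its highest WT value. Aif1 changed most, from 12.1, 12.97, 14.3 and 12.9 FPKM in WT to 66.5, 40.7, 44.4 and 44.2 in 5xFAD mice (log2 change 1.92 ± 0.27, edgeR adjusted p = 0.000434). Replicate 1 of the 5xFAD mice stood apart from the other 3, which lay within 4 FPKM of each other, and without it the log2 change of Aif1 was 1.72.

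Tmem119, a membrane protein whose expression in brain is specific to microglia, and Sall1 had smaller changes. Tmem119 was 29.8, 26.8, 20.7 and 25.8 FPKM in WT and 53.9, 42.4, 33.8 and 39.9 in 5xFAD mice (log2 change 0.73 ± 0.17 SE, edgeR adjusted p = 0.0185). This call was lost without 5xFAD replicate 1, WT replicate 3 or WT replicate 4, where the adjusted p was 0.0547, 0.0624 and 0.0559. Sall1 was 1.75, 1.64, 1.43 and 1.51 FPKM in WT and 2.97, 2.65, 2.98 and 2.61 in 5xFAD mice (log2 change 0.84 ± 0.15, edgeR adjusted p = 0.00272). The plot of FPKM by mouse shows these values for each gene.

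**Figure D1:**
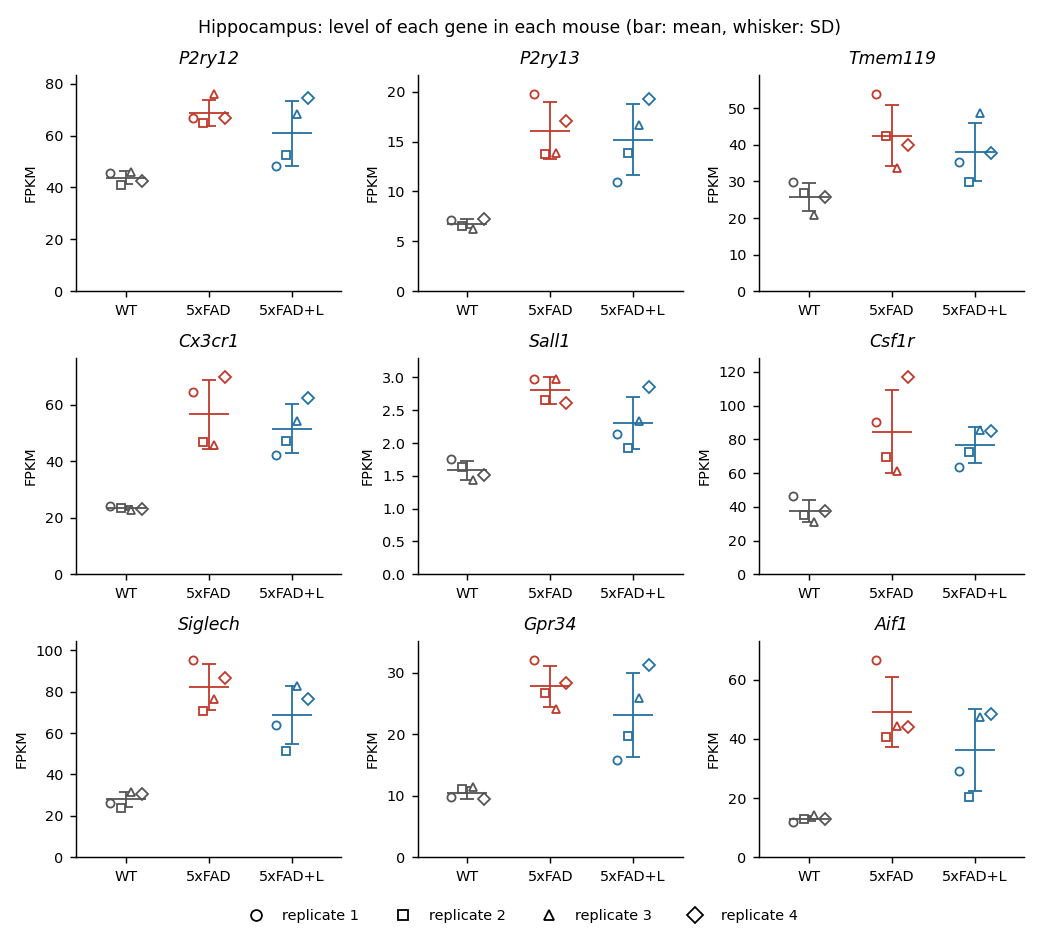
FPKM of each of the 9 genes in each HPC sample (symbols, by replicate number), with the mean (bar) and SD (whiskers) of the WT, the untreated and the light-treated mice, n = 4 in each group. For each of the 9 genes both 5xFAD groups lie above the 4 WT mice, and light-treated replicates 1 and 2 lie below replicates 3 and 4.

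Other genes linked to these cells were taken from lists and set beside the 9 genes. In bulk HPC some of them may be expressed by other cells as well, and the part of those cells was not tested. Of 18 other homeostatic genes tested in HPC, 12 rose, none fell and 6 did not pass, with a median log2 change of 0.85. Among those with the smallest p values were Fcrls, an Fc receptor-like protein (2.14), Olfml3 (1.67), Selplg, a selectin ligand (1.06), Vsir, an immune checkpoint protein (1.5), and Entpd1, an ectoenzyme that degrades ATP and ADP (1.28). The 6 that did not pass, named after their values were seen, were Crybb1 (0.56), Mertk (0.26), Adgrg1 (0.08), Rhob (0.01), Bin1 (-0.02) and Golm1 (-0.15). Of 9 tested genes that handle extracellular nucleotides around the P2Y receptors, 5 rose: Entpd1, the adenosine receptor Adora3 (1.57), the UDP receptor P2ry6 (1.15), Entpd2 (0.69) and the ATP-gated channel P2rx4 (0.71). The remaining 4 did not pass, with log2 changes of 0.25 to 0.77. Adora3 reached the filter for testing only with the 5xFAD mice, as described below.

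Of 18 tested ligands and regulators of the homeostatic state, 6 rose, 1 fell and 11 did not pass. Among the 6 that rose were Tgfbr2, a TGF-β receptor subunit (2.00), Irf8, a transcription factor of microglia (2.53), Spi1, which encodes PU.1 (1.99), Csf1, a ligand of CSF1R (0.91), and Tgfbr1 (0.60). The 1 that fell, named after its value was seen, was Cx3cl1, the neuronal ligand of CX3CR1, which went from 234 ± 7.46 to 182 ± 6.46 FPKM (SD, n = 4; log2 change -0.35, edgeR adjusted p = 0.0165). The other CSF1R ligand, Il34, also named after its value was seen, was 34.5 ± 1.15 FPKM in WT and 31.2 ± 7.07 in 5xFAD mice and did not pass (edgeR adjusted p = 0.603).

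A pan-myeloid list, of genes expressed by many kinds of myeloid cell, was also examined, with no test of its difference from the homeostatic genes. All 12 pan-myeloid genes tested rose, with a median log2 change of 2.27 against 1.26 for the 9 genes, and those with the smallest p values were the lysosomal protein Cd68 (3.12), lysozyme Lyz2 (3.56), Ptprc, which encodes CD45 (2.40), the adaptor Tyrobp (2.84), Laptm5 (1.81) and complement C1qc (2.16). Of 14 plaque-associated microglia genes tested, 13 rose, with a median of 2.51 and the smallest p values for the lectin receptor Clec7a (6.95), the cystatin Cst7 (8.27), the chemokine Ccl6 (3.87), the integrin Itgax (6.21), the lipid receptor Trem2 (3.05) and Tyrobp. The 14th, lipoprotein lipase Lpl, named after its value was seen, did not pass (0.17). Itgax reached the filter for testing only with the 5xFAD mice, as described below. The mean log2(FPKM + 1) of the pan-myeloid genes was 4.65 ± 0.07 (SD, n = 4) in WT and 6.79 ± 0.35 in 5xFAD HPC. Taken relative to that mean, the log2 level of each of the 9 genes was lower in 5xFAD than in WT mice, by 1.49 for P2ry12, 1.42 for Tmem119 and 1.31 for Sall1 at one end and by 0.26 for Aif1 at the other. The pan-myeloid genes themselves rose by 0.86 to 3.56 on the log2 scale, and Tyrobp stands in the plaque-associated list too. Their mean is therefore not a measure of cell number alone, and levels relative to it do not give RNA per cell. These relative levels are given as a description and were not tested.

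**Figure D2:**
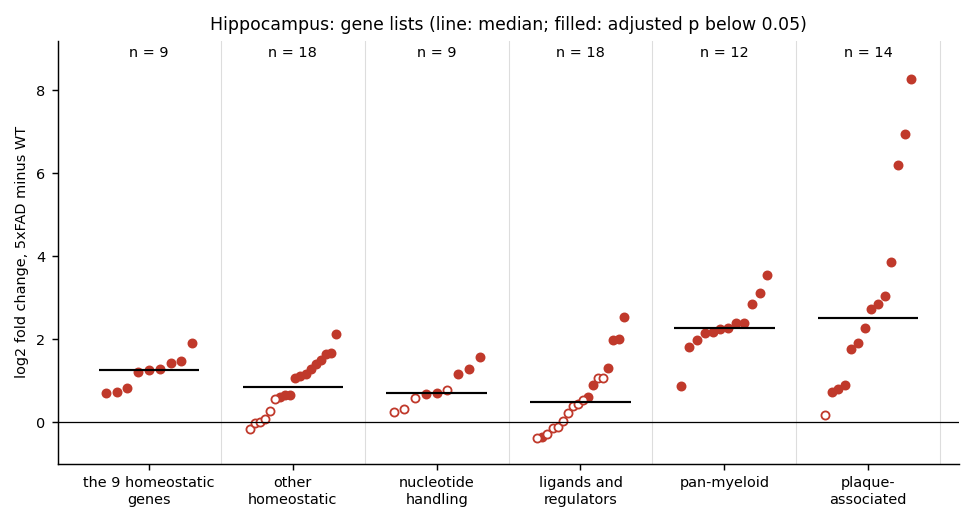
Log2 change between untreated 5xFAD and WT HPC for each tested gene of 6 lists (points; the number tested stands above each list), filled where the edgeR adjusted p was below 0.05, with the median of the list as a line. The median is 1.26 for the 9 homeostatic genes, 2.27 for the pan-myeloid and 2.51 for the plaque-associated list. Itgax (plaque-associated) and Adora3 (nucleotide handling) were tested only through the 5xFAD mice.

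Markers of other cells were measured in the same libraries. The summed level of 9 border-associated macrophage markers, cells that also express Csf1r, Cx3cr1 and Aif1, was 4.17 to 7.08 FPKM in WT HPC, 10.6 to 20.1 in untreated 5xFAD and 4.35 to 8.32 in light-treated 5xFAD mice. None of the 9 markers was at 0 in all samples of a group, and of the 4 that were tested 1, the chemokine Pf4, rose in 5xFAD mice (log2 change 1.63, edgeR adjusted p = 0.0328). The summed level of 5 neuron markers was 1748 to 1910 FPKM in WT and 1381 to 1835 in untreated 5xFAD mice, and 1 of the 5, the interneuron enzyme Gad1, named after its value was seen, fell (-0.46). Astrocyte markers summed to 478 to 569 FPKM in WT, 622 to 3014 in untreated and 1020 to 1407 in light-treated 5xFAD mice, and 3 of the 4 rose in untreated 5xFAD mice, namely the filament protein Gfap (2.47), the water channel Aqp4 (0.88) and Aldh1l1 (0.49). Of 7 neutrophil markers, summing to 0.97 to 2.07 FPKM in WT and 3.48 to 9.2 in untreated 5xFAD mice, 2 were tested and S100a8 rose (2.41). A gene was tested where 3 or more HPC samples reached an FPKM of 1. At such low WT levels, markers of neutrophils and border-associated macrophages could reach this mainly through the untreated 5xFAD mice. No conclusion is drawn from the calls of Pf4 and S100a8. Of 6 fibroblast markers the collagens Col1a1 (1.01) and Col1a2 (1.83) rose, while the summed levels of 26.3 to 46.6 and 25.1 to 107 FPKM overlapped. The part of these cells in the values of the 9 genes was not tested. Among the 10 genes whose levels ran most like the mean of the 9 genes over the 12 HPC libraries were Ctsh, Spi1, C1qc, Ctss, Ncf1, C1qa, Fcgr2b, Gm49339 and Tnfaip8l2, with Pearson's r of 0.987 to 0.99. With each group centred on its own mean, the 10 closest included Tpd52l2, Lpxn, Npc2, Lxn, Lair1, Trem2, Cmtm3, Cd53 and Tsc22d4 (r of 0.935 to 0.956), and 1 gene was in both sets. The points of these correlations are 12 libraries that share 3 groups and their differences in tissue make-up.

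Within the 9 genes, every pair was positively correlated over the 12 HPC libraries, with r of 0.77 (P2ry12 and Tmem119) to 0.99 (P2ry13 and Cx3cr1). With the groups centred, all 36 pairs stayed above 0, from 0.11 (P2ry12 and Csf1r) to 0.92 (Siglech and Aif1), with a median of 0.63. These values describe 12 libraries and carry no test.

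To examine the effect of light, light-treated were compared with untreated 5xFAD mice in HPC. None of the 9 genes passed the test in edgeR, DESeq2 or limma, and none reached an unadjusted p below 0.05 in edgeR. Of the tested genes 0.455% passed after adjustment and 18.3% had an unadjusted p below 0.05. The log2 differences were negative for all 9 genes, from -0.09 for P2ry13 to -0.43 for Aif1, with a median of -0.16 against -0.02 for all tested genes. The sign turned for P2ry13 without light-treated replicate 1 or untreated replicate 1 and for Csf1r without untreated replicate 4. Each mean of the light-treated mice lay between the means of WT and untreated 5xFAD mice. None of the 9 genes had light-treated values all below the untreated ones, which 3.98% of the tested genes had. This comparison shares the untreated mice with the comparison to WT.

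Aif1 had the most negative value. It stood at 29.2, 20.3, 47.4 and 48.3 FPKM in the 4 light-treated mice, of which replicates 1 and 2 were below all untreated mice and replicates 3 and 4 were within their range (log2 difference -0.43 ± 0.26 SE, 95% interval -0.98 to 0.12, edgeR adjusted p = 0.386). Sall1 was 2.14, 1.92, 2.33 and 2.85 FPKM, with 3 of the 4 light-treated mice below all untreated ones (log2 difference -0.28 ± 0.15, 95% interval -0.59 to 0.03, edgeR adjusted p = 0.321). Gpr34 was 15.8, 19.7, 25.9 and 31.2 FPKM and Siglech 64.1, 51.4, 82.9 and 76.2. Replicates 1 and 2 were again the lower ones, with 95% intervals of -0.67 to 0.14 and -0.55 to 0.11 on the log2 scale. P2ry12 was 48.1, 52.5, 68.2 and 74.7 FPKM, P2ry13 10.97, 13.8, 16.7 and 19.2 and Cx3cr1 42.4, 47.1, 54.3 and 62.6. Tmem119 was 35.4, 29.9, 48.8 and 37.9 FPKM and Csf1r 63.8, 72.4, 85.3 and 84.96. For these 5 genes the 95% intervals reached from -0.54 at the lowest to 0.29 at the highest, so that a difference of more than 1.5-fold in either direction lay outside them.

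In the light-treated group, replicates 1 and 2 lay below replicates 3 and 4 for all 9 genes. The same order was seen for the summed pan-myeloid genes, at 1873, 1550, 2989 and 2892 FPKM in replicates 1 to 4, and for the summed plaque-associated genes, at 5005, 5233, 7120 and 6923 FPKM. The light-treated libraries also held little of the choroid plexus, with 4 markers summing to 61.96 to 242 FPKM against 204 to 3180 in untreated 5xFAD and 35.9 to 2784 in WT mice, and of the leptomeninges, with 6 fibroblast markers summing to 9.25 to 26.8 against 25.1 to 107 and 26.3 to 46.6 FPKM. The part of the dissection in the 9 genes' values was not tested. None of the lists of other homeostatic genes (18 tested), nucleotide handling genes (9), ligands and regulators (18), pan-myeloid genes (12) and plaque-associated genes (14) held a gene past the test in edgeR, where 3, 1, 4, 0 and 0 genes had an unadjusted p below 0.05, with median log2 differences of -0.23, -0.26, -0.15, -0.28 and -0.20.

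Against WT littermates, light-treated 5xFAD mice were still higher for each of the 9 genes, and no light-treated value overlapped the WT values, a pattern found for 7.33% of the tested genes. In edgeR, 7 of the 9 passed, against 3.05% of the tested genes in this direction, with log2 changes of 0.56 for P2ry12, 1.06 for Csf1r, 1.15 for Cx3cr1, 1.17 for Gpr34, 1.17 for P2ry13, 1.26 for Siglech and 1.49 for Aif1. Tmem119 (0.56 ± 0.17 SE, edgeR adjusted p = 0.103) and Sall1 (0.56 ± 0.15, edgeR adjusted p = 0.0569) did not pass, though both did with DESeq2 or with the compared groups alone. The call of P2ry12 (edgeR adjusted p = 0.0423) was lost in limma and when any of 7 libraries was left out, namely light-treated replicate 3 or 4, untreated replicate 2 or any 1 of the 4 WT mice, with adjusted p of 0.0579 to 0.131 in these.

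**Figure D3:**
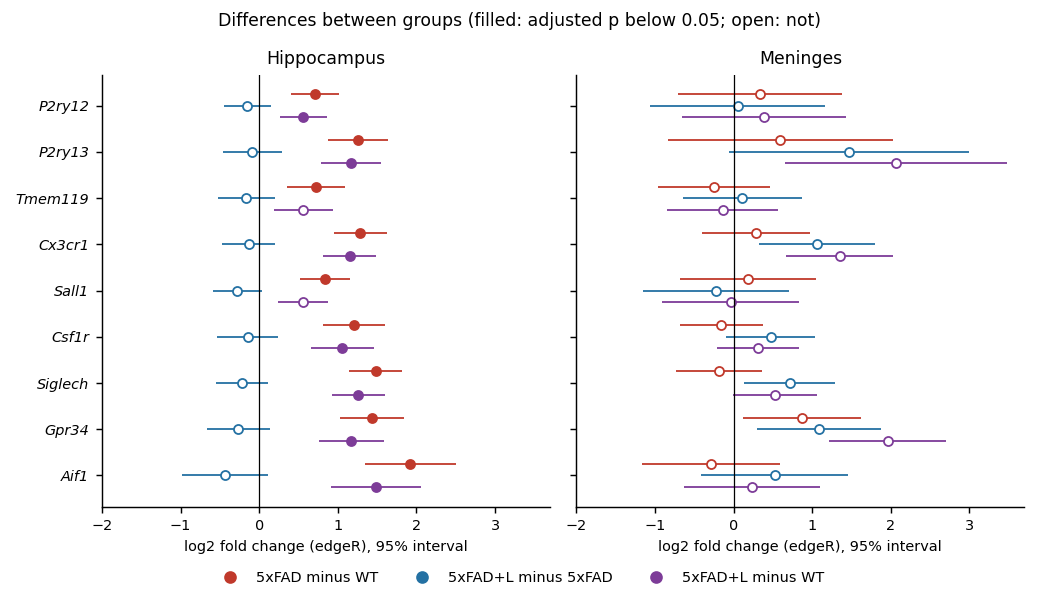
Log2 differences with 95% intervals for each of the 9 genes in HPC (left) and meninges (right) for 5xFAD minus WT, light-treated minus untreated 5xFAD and light-treated 5xFAD minus WT, from edgeR, filled where the adjusted p was below 0.05. In HPC all 9 values of 5xFAD minus WT are filled and none of light-treated minus untreated, and in meninges none is filled.

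The meninges hold border-associated macrophages, which share part of the homeostatic programme, and WT meninges were compared with WT HPC for the 9 genes. In WT meninges 5 neuron markers summed to 156 to 456 FPKM, against 1748 to 1910 in WT HPC. The 4 oligodendrocyte markers summed to 107 to 251 FPKM, against 1995 to 3636. Choroid plexus markers summed to 15570 to 41720 FPKM in WT meninges, against 35.9 to 2784 in WT HPC. Red cell markers summed to 5037 to 17541 FPKM, against 9.89 to 77.1. The part of brain tissue, choroid plexus and blood in the meningeal values of the 9 genes was not tested. Of the 9 genes, 6 were lower in meninges and 3 were higher, where 33.2% and 37.8% of the 14144 tested genes passed in these directions. P2ry12 differed most, at 5.23, 2.55, 1.47 and 2.71 FPKM in meninges, 11.5-fold below HPC (log2 difference -3.53 ± 0.30 SE, edgeR adjusted p = 2.47e-06). It was followed by P2ry13 at 0.97, 2.23, 0.89 and 0.060 FPKM (-2.69 ± 0.54), Cx3cr1 at 6.48, 8.4, 4.05 and 3.15 (-2.06 ± 0.26), Gpr34 at 2.2, 4.3, 2.03 and 3.82 (-1.77 ± 0.28) and Siglech at 8.11, 7.35, 7.82 and 10.3 (-1.71 ± 0.19). No meningeal value of these 5 genes reached the WT HPC values, as for 30.5% of the tested genes. In WT replicate 4 of the meninges P2ry13 rested on a count of 1. Csf1r, which all macrophages need, was closest to its HPC level at 34.4, 28.6, 22.1 and 19.8 FPKM (log2 difference -0.46 ± 0.19, edgeR adjusted p = 0.0461), and its call was lost in 7 of the 8 fits that left out 1 library, all but that without meninges WT replicate 1, with adjusted p of 0.0530 to 0.149.

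Sall1, Aif1 and Tmem119 were higher in WT meninges. Sall1 was 8.85, 8.05, 14.5 and 11.6 FPKM, 6.496-fold above HPC (log2 difference 2.70 ± 0.20 SE, edgeR adjusted p = 1e-06), and Aif1 44.9, 77.1, 36.9 and 106 FPKM, 4.898-fold above (log2 difference 2.29 ± 0.32, edgeR adjusted p = 9.37e-05). Tmem119 was 62.9, 65.7, 26.9 and 40.6 FPKM, with 1 mouse inside the HPC range (log2 difference 0.89 ± 0.27, edgeR adjusted p = 0.0129). Sall1 and Aif1 did not overlap between the tissues, where 35.6% of the tested genes lay higher in meninges in this way. Aif1 went with the pan-myeloid genes, of which 10 of 12 were higher in meninges and 1, Itgam, lower (-1.53, named after its value was seen), and with all 9 border-associated macrophage markers, which were higher by 4.15 to 7.13 on the log2 scale. Tmem119 and Sall1 are also known outside the immune system, Tmem119 in bone-forming cells and Sall1 in kidney and other developing organs. Markers of bone-forming cells, a list added after the data were seen, summed to 344 to 1093 FPKM in WT meninges and 5.49 to 6.92 in WT HPC, led by the osteocalcin gene Bglap (254 ± 210 FPKM, SD, n = 4) and alkaline phosphatase Alpl (122 ± 32.7). Over the 10 meninges libraries Sall1 ran against P2ry12 (r = -0.82) and Tmem119 (r = -0.68), whereas 27 of the 36 pairs of the 9 genes had a positive r. The source of Tmem119 and Sall1 transcripts in the meninges was not tested.

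**Figure D4:**
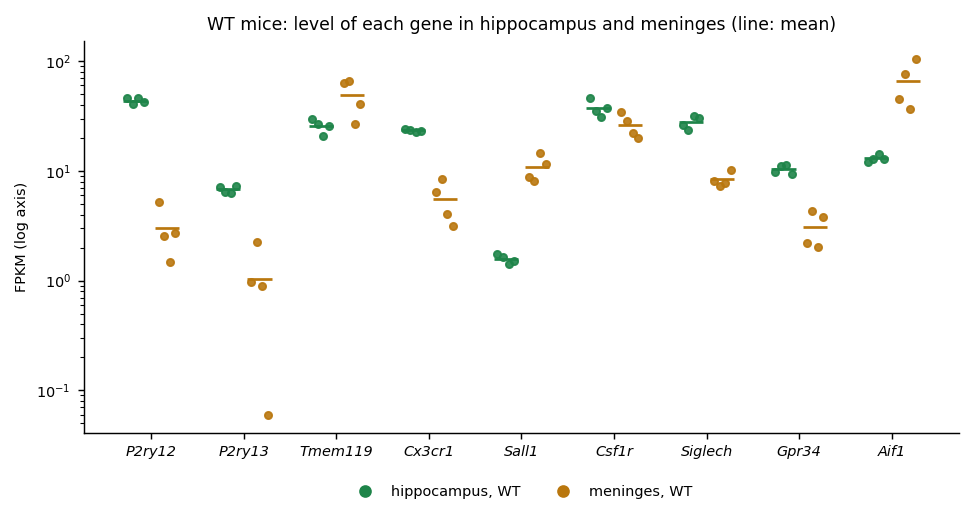
FPKM on a log axis of each of the 9 genes in 4 WT HPC and 4 WT meninges samples (points), with the mean as a line. P2ry12, P2ry13, Cx3cr1, Siglech and Gpr34 lie lower in meninges without overlap, and Sall1 and Aif1 higher without overlap.

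Of the other homeostatic genes, 9 of 18 tested were lower and 5 higher in WT meninges. Of all tested genes, 33.2% were lower and 37.8% higher, and the lists were not tested against these shares. The smallest p values belonged to the matrix protein Sparc (2.23 on the log2 scale), Bin1 (-1.72), Golm1 (-2.77), Olfml3 (2.59), Entpd1 (2.01) and the fructose transporter Slc2a5 (-4.08). Among ligands and regulators, 10 of 20 were higher and 4 lower. The smallest p values belonged to the transcription factor Runx1 (4.75), Tgfbr2 (3.15), Tgfb3 (2.48), the TGF-β signal transducer Smad4 (1.49), Cx3cl1 (-2.49) and Tgfb1 (3.67). The other 3 that were lower, named after their values were seen, were Il34 (-1.09), Mef2a (-0.75) and Mef2c (-1.34).

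In meninges, untreated 5xFAD and WT mice did not differ in any of the 9 genes after adjustment in edgeR, DESeq2 or limma, nor in any of the 14318 genes tested in edgeR (0% of them, with 574 or 4.01% at an unadjusted p below 0.05). The log2 differences ran from -0.29 for Aif1 to 0.87 for Gpr34, the only 1 of the 9 with an unadjusted p below 0.05 (edgeR adjusted p = 0.987). Gpr34 was 2.2, 4.3, 2.03 and 3.82 FPKM in the 4 WT mice and 4.51, 5.05 and 7.48 in the 3 untreated 5xFAD mice. Siglech was 8.11, 7.35, 7.82 and 10.3 FPKM in WT and 6.37, 6.8 and 7.23 in 5xFAD mice. In FPKM the groups did not overlap, with Gpr34 higher and Siglech lower in 5xFAD mice. Groups apart in FPKM were found for 2.19% of the tested genes in the higher and 2.65% in the lower direction. In counts scaled by library (log2) the groups overlapped for both genes. Gpr34 was 3.177 in 5xFAD replicate 1, below 3.195 in WT replicate 2. Siglech was 3.702 in 5xFAD replicate 4, above 3.427 and 3.493 in WT replicates 2 and 3. Aif1, the gene with the largest change in HPC, was 44.9, 77.1, 36.9 and 106 FPKM in WT and 57.9, 51.5 and 54.7 in 5xFAD mice, so that the WT values lay on both sides of the 5xFAD values (log2 difference -0.29 ± 0.41 SE, 95% interval -1.17 to 0.59). With the wider spread between meninges samples, differences inside such intervals were not detectable.

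Light-treated and untreated 5xFAD meninges showed higher values of several of the 9 genes after light, none of which passed the test in edgeR, DESeq2 or limma. In edgeR 0.014% of the tested genes passed. Unadjusted p values below 0.05 were found for 3 of the 9, Cx3cr1, Gpr34 and Siglech, and for 12.7% of the tested genes. Cx3cr1 was 4.81, 6.4 and 9.21 FPKM in the 3 untreated and 13.4, 17.4 and 12.5 in the 3 light-treated mice (log2 difference 1.07 ± 0.34 SE, 95% interval 0.33 to 1.80, edgeR adjusted p = 0.297). Gpr34 was 4.51, 5.05 and 7.48 FPKM in untreated and 12.1, 12.02 and 11.5 in light-treated mice (log2 difference 1.09 ± 0.37, edgeR adjusted p = 0.304). Siglech was 6.37, 6.8 and 7.23 FPKM in untreated and 10.5, 11.1 and 10.9 in light-treated mice (log2 difference 0.72 ± 0.27, edgeR adjusted p = 0.328). For each of these 3 genes the light-treated values lay above all untreated values.

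P2ry13 had the largest difference of the 9 genes in this comparison, on low counts of 17, 65 and 44 in the untreated and 170, 170 and 99 in the light-treated mice (log2 difference 1.47 ± 0.71 SE, edgeR adjusted p = 0.405). Csf1r was 15.1, 27.3 and 25.8 FPKM in untreated and 31.96, 39.1 and 27.9 in light-treated mice (log2 difference 0.47 ± 0.26, edgeR adjusted p = 0.453). With Cx3cr1, Gpr34 and Siglech these made 5 of the 9 genes whose light-treated values all lay above the untreated ones, which 10.1% of the tested genes did. The other 4 genes overlapped between the groups. P2ry12 was 2.51, 1.9 and 7.0 FPKM in untreated and 3.42, 2.87 and 3.74 in light-treated mice, Aif1 57.9, 51.5 and 54.7 and 122, 45.7 and 63.7, Tmem119 29.2, 37.3 and 57.3 and 47.3, 51.4 and 36.2, and Sall1 19.4, 13.2 and 3.83 and 8.27, 14.9 and 8.36. Their log2 differences were 0.05, 0.53, 0.11 and -0.22.

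Against WT meninges, the light-treated values of P2ry13, Cx3cr1, Siglech and Gpr34 lay above all WT values, as did those of 6.99% of the tested genes. None passed in edgeR, where 0.014% of the tested genes did, or in limma, and 3 of the 9, against 16.4% of the tested genes, had an unadjusted p below 0.05 in edgeR: Gpr34 (log2 difference 1.96 ± 0.35 SE, edgeR adjusted p = 0.0808), Cx3cr1 (1.35 ± 0.32, edgeR adjusted p = 0.117) and P2ry13 (2.06 ± 0.65, edgeR adjusted p = 0.171). DESeq2 called these 3, at adjusted p of 0.000167 for Gpr34, 0.0116 for Cx3cr1 and 0.0457 for P2ry13. In edgeR Gpr34 passed without a filter on low values (adjusted p = 0.0387), and Gpr34 and Cx3cr1 passed without WT replicate 2 (adjusted p = 0.0245 and 0.0327).

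Other immune lists in the same meninges libraries were spread over the mice. The summed pan-myeloid genes were 1856 to 3024 FPKM in untreated and 2265 to 4557 in light-treated mice, and the 9 border-associated macrophage markers 409 to 497 and 393 to 739. Of 12 pan-myeloid genes 0 passed in edgeR and 0 had an unadjusted p below 0.05 between light-treated and untreated mice, with a median log2 difference of 0.25 against 0.53 for the 9 homeostatic genes and 0.04 for all tested genes. The 4 B cell markers summed to 23.6 to 24.4 FPKM in untreated and 33.7 to 61.9 in light-treated mice, without overlap, and 3 of them had an unadjusted p below 0.05. Neutrophil markers reached 7320 FPKM in 1 light-treated mouse against 592 to 3006 in the untreated ones. The 4 monocyte markers summed to 63.7 to 153 FPKM in untreated, 77.6 to 221 in light-treated and 50.0 to 86.8 in WT mice. Of these 4 markers, 1 had an unadjusted p below 0.05 between light-treated and untreated mice. The part of these cells in the differences of the 9 genes was not tested. Cask, which spans Gpr34 on the other strand, was 5.71 to 7.13 FPKM in untreated and 4.55 to 7.53 in light-treated mice, and Med12l, which spans P2ry13, 0.58 to 1.03 and 0.57 to 0.79.

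**Figure D5:**
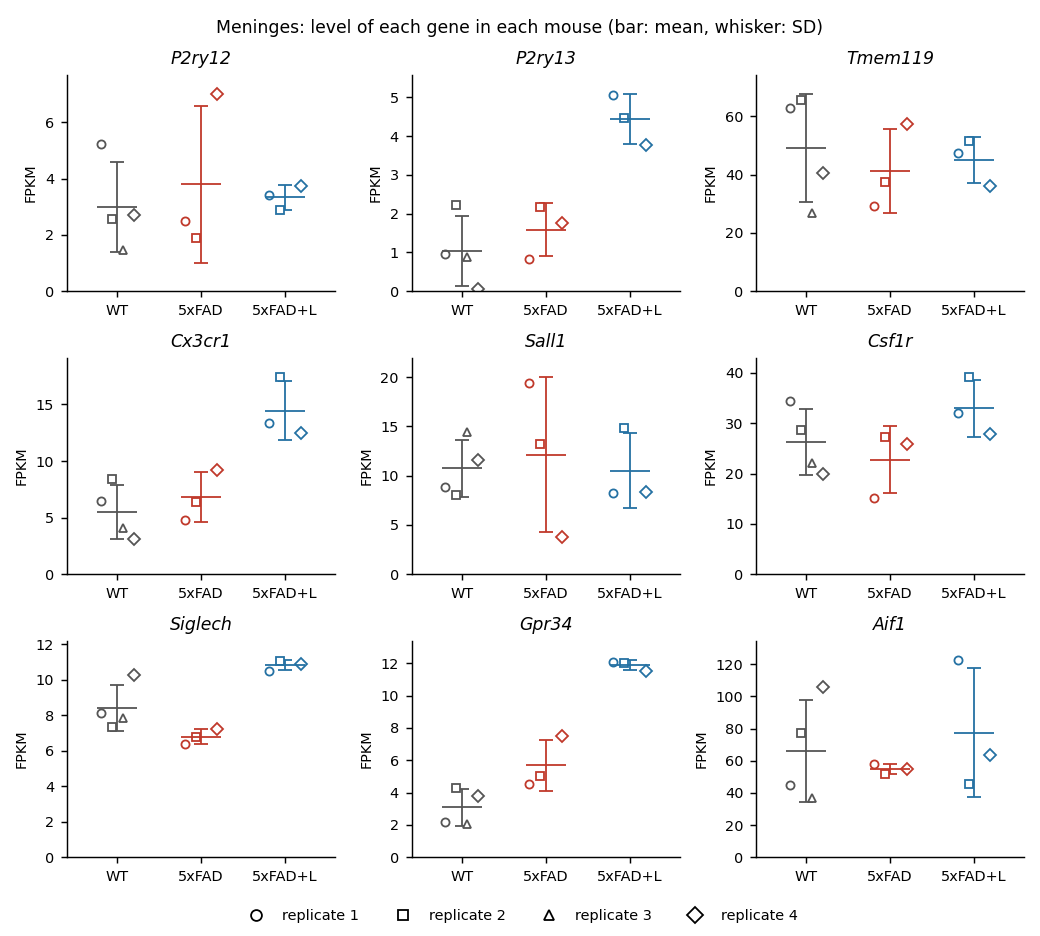
FPKM of each of the 9 genes in each meninges sample (symbols, by replicate number), with the mean (bar) and SD (whiskers) of 4 WT mice and, among 5xFAD mice, 3 untreated and 3 light-treated ones. P2ry13, Cx3cr1, Siglech and Gpr34 are higher in the 3 light-treated mice than in every other mouse, and P2ry12, Tmem119, Sall1 and Aif1 overlap between the groups.

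Whether the tissues differed in these effects was tested by an interaction over the 22 HPC and meninges libraries. The sources used here do not say if an HPC and a meninges library came from 1 mouse. All libraries were fitted as independent, here and in the comparison of the WT tissues. Both fits gave each gene 1 estimate of spread for the 2 tissues together. In the separate fits the biological coefficient of variation was 0.198 for HPC and 0.35 for meninges, so the meningeal spread may be understated here. The effect of the 5xFAD genotype was larger in HPC than in meninges for 3 of the 9 genes, where 1.67% of the 15132 tested genes passed in this direction: Siglech, with a difference of effects of 1.67 ± 0.26 on the log2 scale (SE, edgeR adjusted p = 0.00125), Csf1r (1.37 ± 0.32, edgeR adjusted p = 0.0264) and Aif1 (2.20 ± 0.51, edgeR adjusted p = 0.0267). Siglech passed in each of the 22 fits that left out 1 library. Csf1r was lost in 7 of these fits (without HPC 5xFAD replicate 1 or 4, HPC WT replicate 2, 3 or 4, meninges 5xFAD replicate 1 or meninges WT replicate 1, highest adjusted p = 0.104) and Aif1 in 7 (without HPC 5xFAD replicate 1, HPC WT replicate 1, 2 or 4, meninges 5xFAD replicate 1 or 2, or meninges WT replicate 4, highest adjusted p = 0.0808). For the other 6 genes the difference of effects was 0.39 to 1.01 and did not pass. The effect of light differed between the tissues for none of the 9 genes in edgeR, where 1.05% of the tested genes passed in either direction and 4 of the 9 (Gpr34, Siglech, Cx3cr1 and P2ry13) had an unadjusted p below 0.05, as did 19.8% of the tested genes. DESeq2 called 3 of them, Cx3cr1 (-1.17 in edgeR, DESeq2 adjusted p = 0.0406), Siglech (-0.91; 0.0323) and Gpr34 (-1.32; 0.0268), and edgeR called Cx3cr1 and Gpr34 without meninges 5xFAD replicate 4 (adjusted p = 0.0461 and 0.0404).

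In sorted mLECs the 9 genes were rarely detected. Of the 90 values (9 genes in 10 libraries), 84 were at 0, none of the genes passed the filter for testing, and P2ry13, Sall1, Siglech and Gpr34 were at 0 in all 10 libraries. Zeros were also found for genes that lymphatic endothelial cells carry, since Pdpn, whose protein was used in the sort, was at 0 in 4 of the 10 libraries and Prox1 in 3. A count of 3, the most that a count of 0 allows, amounts to 0.124 to 0.211 CPM (counts scaled to the library total) at these depths, for counting error only. Of the 6 values above 0, 3 were counts of 1 (P2ry12 in light-treated replicate 2, Tmem119 in light-treated replicate 3 and Csf1r in WT replicate 3). The other 3 were each in a single library: P2ry12 with a count of 1092 (42.5 FPKM) in WT replicate 2, Aif1 with 80 (5.86 FPKM) in WT replicate 3, and Cx3cr1 with 24 (0.45 FPKM) in light-treated replicate 1. In the library with the P2ry12 count the other 8 genes, Ptprc, Spi1 and Tyrobp were at 0. In the same library oligodendrocyte markers summed to 260.1 FPKM (at most 0.83 in the other 9) and choroid plexus markers to 563 (at most 96.8), and Ccl21a was 3.54 FPKM. The part of such cells or their RNA in the P2ry12 value was not tested. Med12l, on the other strand, was 0.06 FPKM there. Of the 12 pan-myeloid genes, 5 (Ptprc, Laptm5, Tyrobp, Spi1 and C1qa) were at 0 in all 10 libraries. The Fc receptor chain Fcer1g was above 0 in each of the 10 libraries, at 0.08 to 185 FPKM.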

How the data were processed

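RNA of 32 mouse samples had been amplified by Smart-seq2 from poly(A) tails, without strand information, and sequenced. The authors deposited expected counts per gene, estimated by RSEM according to the methods, and FPKM values for the same 22337 genes. The submitters' processing notes name Trimmomatic, HISAT2, StringTie, DESeq2 and mm10 instead, and this difference could not be settled. The symbols of the mLEC table were joined by gene identifier to the table of HPC and meninges, since the latter gives other names for P2ry13 and Siglech. Gene bounds came from GENCODE vM21.

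The quasi-likelihood test of edgeR 4.0.16 (R 4.3.3, TMM scaling) was run on rounded expected counts, in 1 fit per tissue, after genes had been kept where 3 or more samples reached an FPKM of 1. P values were adjusted over all genes tested by the Benjamini-Hochberg method, with a threshold of 0.05. They set each difference against the estimated spread between the libraries of a group. Intervals are at 95%. The code was tested on simulated counts in which 200 genes were changed by a known fold between 5xFAD and WT. In HPC, 39 of them were recovered at 1.5-fold, 143 at 2-fold and 194 at 4-fold. In meninges 0 were recovered at 1.5-fold, 0 at 2-fold and 138 at 4-fold. A gene that did not pass in meninges may therefore still differ by 2-fold. Alternatives were DESeq2 1.42.0, limma 3.58.1 on log2(FPKM + 1) and log2(FPKM + 0.1), no filter, the compared groups alone, a replicate block and each library left out. Same-numbered samples of a tissue came from different mice, and the correlations of their residuals ran from -0.29 to 0.09 in HPC and from -0.30 to 0.24 in meninges, so the numbers were not taken as pairs.

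The 9 genes and all lists were chosen with earlier results of these data known. Of a list, the genes that passed were named, up to 6 by smallest p value, and others named after their values were seen are said to be so. The columns of per-sample values were all used. Some genes of the lists are counted but not reported here by name.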

Additional observations from a re-analysis of the deposited data

Results flagged for a closer look

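In 4 of 39 groups of 4 samples 1 sample lay far from the other 3. In 3 of these, all from mLECs, the other 3 samples were at 0, so that any value above 0 lies far by construction. Among the remaining 36 groups 1 was found, where chance gives about 1 in 20. P2ry12 was 42.5 FPKM in mLEC WT replicate 2 and 0 in the other 3 WT libraries. Aif1 was 5.86 FPKM in mLEC WT replicate 3 and Csf1r 0.02 FPKM in the same library, the latter a single count, with 0 in the other 3 for both. Aif1 was 66.5 FPKM in HPC of 5xFAD replicate 1, above 40.7 to 44.4 in the other 3 mice.

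The effect of the 5xFAD genotype differed between HPC and meninges by the interaction test in edgeR for Siglech (1.67 on the log2 scale), Csf1r (1.37) and Aif1 (2.20), larger in HPC in each case.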

How the results depend on the processing

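Over 81 values and 1611 alternatives, 1525 kept the direction and side of the threshold, 33 lost a call, 18 gained one and 35 turned sign, all of the last in values that had not passed. With single libraries left out, the number of the 9 genes called was 8 to 9 for 5xFAD against WT HPC, 6 to 9 for light-treated 5xFAD against WT HPC, 8 to 9 for WT meninges against WT HPC, 0 to 2 for light-treated 5xFAD against WT meninges (2 without meninges WT replicate 2), 1 to 3 for the genotype interaction and 0 to 2 for the light interaction. The genotype interaction kept 1 gene without HPC 5xFAD replicate 1, HPC WT replicate 2, HPC WT replicate 4 or meninges 5xFAD replicate 1, and the light interaction gained 2 without meninges 5xFAD replicate 4. For light-treated 5xFAD against WT meninges, 1 gene was called with no filter and 3 with DESeq2, and 3 were called with DESeq2 for the light interaction. The cause was not tested. The leave-outs of the interactions and the bone-forming and overlapping gene lists were added after seeing the data.

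With the replicate block, 9 genes were called for 5xFAD against WT HPC and no count of called genes changed, and the log2 differences of Sall1 (0.0331) and Aif1 (-0.0464) between light-treated and WT meninges turned sign. Other log2 differences turned sign when 1 library was left out, and their lowest and highest values over such fits are given here. For light-treated minus untreated HPC they ran from -0.23 to 0.0448 for P2ry13, -0.29 to 0.0201 for Csf1r. For light-treated minus WT meninges they ran from -0.29 to 0.096 for Sall1, -0.32 to 0.55 for Aif1, -0.35 to 0.0348 for Tmem119. For 5xFAD minus WT meninges they ran from -0.31 to 0.61 for Sall1, -0.31 to 0.052 for Csf1r, -0.40 to 0.69 for P2ry12, -0.0054 to 0.58 for Cx3cr1, -0.51 to 0.0477 for Aif1. For light-treated minus untreated meninges they ran from -0.21 to 0.79 for P2ry12, -0.65 to 0.27 for Sall1, -0.0335 to 0.83 for Aif1, -0.0928 to 0.43 for Tmem119. For the light effect in HPC minus meninges they ran from -0.53 to 0.35 for Sall1, -0.93 to 0.13 for P2ry12. For the genotype effect in HPC minus meninges they ran from -0.0084 to 1.17 for P2ry12. With no filter on low values the values that turned sign were 0.0017 for Sall1 in light-treated minus WT meninges. With limma on log2(FPKM + 1) the values that turned sign were -0.0371 for Sall1 in 5xFAD minus WT meninges, -0.0021 for P2ry12 in light-treated minus untreated meninges. With limma on log2(FPKM + 0.1) the values that turned sign were -0.0687 for Sall1 in 5xFAD minus WT meninges, 0.0187 for Sall1 in light-treated minus untreated meninges. In meninges the spread between mice and the 3 samples in each 5xFAD group limit what can be detected, and in mLECs the 9 genes could not be tested.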

Other observations

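In light-treated against untreated 5xFAD HPC, 3 of the 4 tested markers of border-associated macrophages had an unadjusted p below 0.05, as did 18.3% of the tested genes. The median log2 difference of the 4 markers was -1.33, and none passed in edgeR. Of the 9 listed markers only these 4 were tested. They could reach the filter mainly through the untreated mice, where the 9 markers summed to 10.6 to 20.1 FPKM against 4.35 to 8.32 in light-treated mice. Of the 5 red cell markers in meninges, all had positive log2 differences between light-treated and untreated mice, with a median of 1.00 and no unadjusted p below 0.05.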
